A study of Rattus norvegicus with 115 samples.

Results

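Receptor tyrosine kinases sit in the cell membrane, bind growth factors outside the cell and phosphorylate tyrosines inside it, which starts the RAS-ERK and PI3K pathways. In the mammary gland they guide the growth of ducts and the upkeep of luminal cells, and ERBB2 is a drug target in human breast cancer. The account below is of 9 such receptors in rat mammary tumours, taken by gene symbol from a table of 17455 symbols. They are the ERBB family (Egfr, Erbb2, Erbb3 and Erbb4), Met, the receptor of hepatocyte growth factor, and Kit, the receptor of stem cell factor. Ror1 is a receptor of Wnt5a, Epha2 a receptor of ephrin-A ligands on neighbouring cells, and Fgfr2 a receptor of fibroblast growth factors. Erbb2 has no known soluble ligand of its own and works in dimers, Erbb3 has little kinase activity and signals through its partners, and Erbb4 binds neuregulins.

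Tumours were induced in virgin Sprague Dawley rats with 1 to 3 intraperitoneal injections of NMU, a DNA-alkylating carcinogen (N-nitroso-N-methylurea), at 50 mg/kg and 35 to 53 days of age. In the immunotherapy cohort, treatment began when tumours could be felt, with vehicle, with anti-PD-L1 (an antibody that blocks this T cell checkpoint ligand), with the TGFBR1 inhibitor LY2157299 (known as galunisertib, which blocks TGF-beta signalling), or with both agents. A further cohort, called Characterization in the labels, carried NMU tumours without treatment, so every tumour here is carcinogen-induced and no normal gland enters. Tumours were dissociated, sorted into fractions labelled CD45 (leukocytes), Ep and DN, and sequenced from under 10 ng of RNA. Doses and durations of the treatments are not given in the labels.

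Column names of the count table give the rat and the tumour, and leave out the fraction. Columns were therefore classed by 2 marker genes, as CPM, a gene's count scaled to the column total. A column was called epithelial with Ptprc (the leukocyte antigen CD45) under 150 CPM and Epcam (an epithelial adhesion protein) of at least 300 CPM, and leukocyte with Ptprc of at least 300 CPM. This gave 61 epithelial columns from 44 tumours of 32 rats and 44 leukocyte columns from 44 tumours of 31 rats. All columns of the table but 1 were used. The epithelial columns came from 8 untreated rats, 7 rats on vehicle, 7 on anti-PD-L1, 4 on the TGFBR1 inhibitor and 6 on the combination. The classes were well apart: the highest Ptprc among epithelial columns was 124 CPM, the lowest among leukocyte columns 486 CPM, and 2 columns fell in neither class. The number of leukocyte columns equalled the number of CD45 samples in 53 of 54 tumours, and the number of epithelial columns that of Ep and DN samples in 51 of 54.

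Total counts ran from 2353564 to 29727437 per column. An untreated column of tumour 2 of rat C10 stood apart with the lowest total. It held 10722 genes with a count, against a median of 13103 in epithelial columns, and 6 of the 9 receptors were at 0 in it, which at this depth allows up to 1.27 CPM each, counting error only. A further 3 untreated columns had fewer genes with a count at totals of 13871813 to 17500712: tumour 4 of rat C10 (8278), tumour 4 of rat C17 (9831) and tumour 1 of rat C11 (10093). The main values that rest on these 4 columns are given also without the lowest-total column, called the C10 column below, without all 4, or in the treated rats alone. Levels below are CPM scaled by TMM (a scaling for differences in RNA composition), averaged over the columns of a rat. Transcript lengths are not in the files, so a receptor's level is compared between samples and never with that of another receptor. In bulk RNA, fewer cells of a type and less RNA per cell cannot be told apart.

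Erbb2, Erbb4, Kit and Fgfr2 are shown by the sequence upstream of their start, because the levels below set them in relation: Erbb2 and Erbb4 both had high correlations with the oestrogen receptor gene over rats, and Kit and Fgfr2 a negative one with each other. RefSeq promoters of assembly GRCr8 were matched for 8 of the 9 receptors. Each line holds the 250 bases before the start, 5′ to 3′ on the gene's strand. Capitals mark matches to the GC box GGGCGG, a common promoter element, and to the ETS core GGAAGT, the core bound by ETS factors such as Elf5, on either strand.
Erbb2, chr10:83907351-83907600, plus strand: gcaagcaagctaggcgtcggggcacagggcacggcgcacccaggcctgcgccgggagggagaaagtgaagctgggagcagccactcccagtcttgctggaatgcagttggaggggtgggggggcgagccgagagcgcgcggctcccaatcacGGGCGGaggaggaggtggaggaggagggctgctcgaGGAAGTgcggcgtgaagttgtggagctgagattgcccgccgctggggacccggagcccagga
Erbb4, chr9:78045607-78045856, minus strand: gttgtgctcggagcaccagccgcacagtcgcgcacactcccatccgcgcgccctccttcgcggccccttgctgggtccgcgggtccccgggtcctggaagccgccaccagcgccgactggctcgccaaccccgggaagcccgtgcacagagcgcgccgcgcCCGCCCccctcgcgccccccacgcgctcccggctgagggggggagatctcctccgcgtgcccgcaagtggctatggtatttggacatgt
Kit, chr14:32978813-32979062, minus strand: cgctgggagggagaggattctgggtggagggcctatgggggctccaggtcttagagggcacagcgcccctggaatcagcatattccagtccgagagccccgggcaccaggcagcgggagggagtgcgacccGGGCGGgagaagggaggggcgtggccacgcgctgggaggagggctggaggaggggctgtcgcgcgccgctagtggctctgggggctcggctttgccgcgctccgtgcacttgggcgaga
Fgfr2, chr1:194280915-194281164, minus strand: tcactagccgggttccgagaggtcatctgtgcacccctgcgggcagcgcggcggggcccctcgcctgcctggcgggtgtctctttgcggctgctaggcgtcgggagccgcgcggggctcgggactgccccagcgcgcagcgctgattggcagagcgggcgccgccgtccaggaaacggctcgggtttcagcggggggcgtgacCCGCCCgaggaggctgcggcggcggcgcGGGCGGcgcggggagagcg
The GC box occurred in 6 of the 8 upstream sequences, including all those shown, and in 30.5% of 33469 rat promoters of the same length. The ETS core occurred in Erbb2 and Epha2, and in 19.2% of promoters. An AP-2 core (GCCNNNGGC, both strands, not in capitals) was found in Kit alone among the 8 and in 12.6% of promoters. A GATA core (AGATAA, both strands) was found in none of the 8 and in 10.3% of promoters. GC content of the upstream sequences was 69.2% for Erbb2, 73.6% for Erbb4, 70.8% for Kit and 76.8% for Fgfr2, against 42% for Met. These matches describe letters, not binding.

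All 9 receptors had a higher median in the epithelial than in the leukocyte columns. Since the classes were made from measured Ptprc and Epcam, the contrast is a description and carries no test. It is with leukocytes only, and epithelial columns held up to 32440 CPM per rat of the fibroblast collagen Col1a1. A column in neither class, with 144880 CPM of Col1a1, held Egfr at 87.8, Fgfr2 at 63.6 and Ror1 at 34.2 CPM, and the other receptors at 11.4 CPM at most. The part of stromal cells in the epithelial values was not tested. In the 34 tumours with both classes, the median difference was above 2-fold with the epithelial side higher for 9 of 9 receptors, and for 16.9% of 17081 genes. Erbb2 was higher on the epithelial side in all 34 tumours, as were 4.05% of genes, and it was the only receptor of the 9 for which every epithelial column lay above every leukocyte column. Its epithelial columns ran from 12.8 to 193 CPM with a median of 77.6, and its leukocyte columns from 0 to 5.87 CPM.

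Erbb3 had a median of 110.1 CPM over epithelial and 2.08 over leukocyte columns, and 59 of 61 epithelial columns lay above the highest leukocyte column. Egfr had medians of 32.1 and 2.61 CPM, and Erbb4 of 7.04 and 0 CPM, with 27 of 44 leukocyte columns at 0 for Erbb4. Egfr and Erbb4 overlapped more between the classes, with 17 and 24 epithelial columns below the highest leukocyte column.
Met had medians of 41.3 and 0.355 CPM and Ror1 of 26.6 and 0.0731 CPM, and in each 59 of 61 epithelial columns lay above all leukocyte columns. Fgfr2 had medians of 77.9 and 1.73 CPM. Epha2 kept a level in leukocyte columns, with a median of 9.45 CPM and a highest value of 38.1 CPM, against 114 CPM in epithelial columns. Leukocyte columns also hold some Epcam, up to 197 CPM, and the part of it in these low receptor values was not tested.

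Kit, which mast cells also carry, had a median of 126 CPM in epithelial and 5.21 CPM in leukocyte columns. The highest leukocyte value, 50.1 CPM, belonged to tumour 1 of rat C7, where the mast cell protease Cpa3 stood at 9.57 CPM. The columns that followed in Kit, tumour 2 of rat P24 (27.9 CPM) and tumour 1 of rat P6 (22.1 CPM), held 430 and 241 CPM of Cpa3. Tumour 1 of rat P22 (Kit 14.3 CPM) held 0.383 CPM of Cpa3, and tumour 1 of rat P29 (13.6 CPM) held 234 CPM. The leukocyte column with the most Cpa3, 1936 CPM in tumour 1 of rat C3, held 11.9 CPM of Kit. In tumour 1 of rat C2, Cpa3 stood at 223 CPM and Kit at 0. In epithelial columns the 8 mast cell markers summed to between 0.0714 and 865 CPM per rat, with a median of 12.1 CPM, and their part in the Kit values was not tested.

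**Figure D1:**
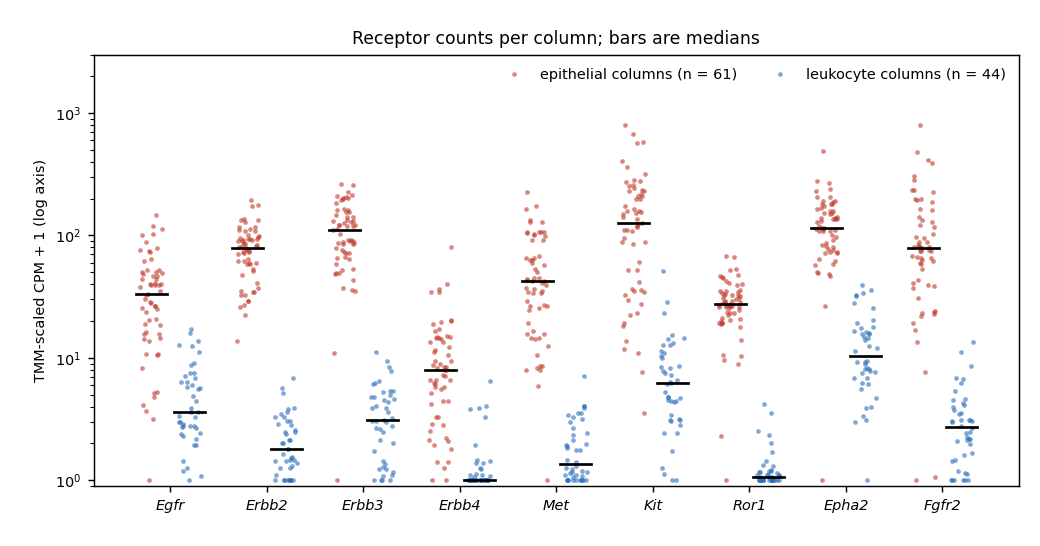
TMM-scaled CPM plus 1 on a log axis for each receptor, with 61 epithelial columns in red and 44 leukocyte columns in blue; black bars are medians. Every epithelial Erbb2 point lies above the leukocyte points, while Egfr, Erbb4 and Kit overlap between the classes, and the points on the lowest line in red are columns at 0.

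Ligands of these receptors were read from a list of 25 genes, of which 23 were in the table. Their epithelial side was more than 2-fold higher in median for 13 of 23, and the leukocyte side for 0. Areg, which encodes an Egfr ligand induced by oestrogen in the mammary gland, had a median of 311 CPM over rats in epithelial columns (range 38.5 to 1372) and 25.2 CPM in leukocyte columns. Kitlg, the Kit ligand, had 164 CPM (76.2 to 328) against 5.40 CPM, so Kit and its ligand were both read in epithelial columns. Efna1, an Epha2 ligand, had 206 CPM against 4.68 CPM. Hgf, the Met ligand and usually a product of stromal cells, had a median of 0.861 CPM in epithelial and 0.554 CPM in leukocyte columns. Among the 19 ERK response genes, 14 were more than 2-fold higher on the epithelial side, among them the ETS factors Etv4 (92.8 against 1.96 CPM) and Etv5 (157 against 13.7 CPM). The 14 also include the receptor Epha2 and the ligand Hbegf, so the lists overlap. Over all genes, 16.9% of 17081 were higher on the epithelial side by that measure. Of 42 other receptor tyrosine kinases in the table, 23 were higher on the epithelial side and 7 on the leukocyte side by that measure. The latter included Csf1r, the receptor of macrophage growth factor (6.57 against 115 CPM), and Flt3, a receptor of dendritic cell precursors (0.956 against 44.3 CPM). The median log2 difference, epithelial minus leukocyte, was 4.38 for the 9 receptors, 1.31 for the ligands, 1.73 for the ERK response genes and 0 over all genes.

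The receptors differed in how much they varied from rat to rat. Over the 24 rats of the immunotherapy cohort the SD of log2 CPM was 0.49 for Erbb2, 0.48 for Ror1, 0.68 for Erbb3 and 0.70 for Epha2. It was 1.46 for Kit, 1.30 for Fgfr2, 1.28 for Erbb4, 1.23 for Met and 1.15 for Egfr, and the median of the genes tested was 0.68. Erbb2 thus spanned 3.70-fold between its lowest and highest rat and Ror1 3.46-fold, whereas Kit spanned 61.5-fold and Fgfr2 60.6-fold. Over all 32 rats the C10 column moved some of these values: the SD of Epha2 was 1.06 with it and 0.70 without, and that of Erbb3 1.19 and 0.92. By the labels, rats had DN samples, Ep samples or both besides CD45. The lowest Fgfr2 rat of the immunotherapy cohort, P38, had DN only and the highest, P28, had Ep only. The part of the fraction in these spreads was not tested.

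Kit also differed between tumours of the same rat. Over 10 pairs of tumours in that cohort, the SD between tumours of a rat was 1.64 for Kit and 1.43 for Erbb4, above the SD of rat means for both. Erbb2 (0.52) and Ror1 (0.46) also had an SD near that of rat means, at a lower spread, whereas Epha2 (0.42), Erbb3 (0.38) and Egfr (0.66) had a smaller one. In 17 tumours with 2 epithelial columns, the SD between columns of a tumour was 1.58 for Erbb4, 1.43 for Egfr, 1.15 for Fgfr2 and 0.86 for Kit. It lay between 0.47 and 0.65 for the other receptors. For Erbb4 and Egfr it was above both the SD between tumours of a rat and the SD of rat means. Rat means average over tumours and columns and include their differences, so these SDs are not separate parts of the spread. In 8 of the 10 rats the tumours were in different batches, those of the rats P36 and P24 below included, so tumour and batch cannot be told apart there. Some of the 10, P36 and P24 among them, also had tumours with unlike sets of Ep and DN samples by the labels. Of the other 2, rat P5 held Kit at 136 and 18.4 CPM and rat P31 at 449 and 382 CPM in tumours of the same batch. Rat P36, given the combination, held Kit at 33.3 and 6.65 CPM in the columns of tumour 2 and at 284 CPM in tumour 3, while Fgfr2 was at 388 and 480 CPM in tumour 2 and at 21.7 CPM in tumour 3. Rat P24, given anti-PD-L1, held a growing tumour with Kit at 12.8, Erbb2 at 21.6, Erbb4 at 0.416 and Egfr at 119 CPM. Its stable tumour had 219, 94.2, 13.6 and 39.5 CPM in the same order, so that Egfr alone of these was higher in the growing tumour. The column of the growing tumour also held 15341 CPM of the fibroblast collagen Col1a1, and the stable tumour's held 138 CPM. The part of other cells was not tested. Besides CD45, the labels give the growing tumour a DN sample and the stable tumour an Ep sample, so growth and fraction cannot be told apart in this rat.

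**Figure D2:**
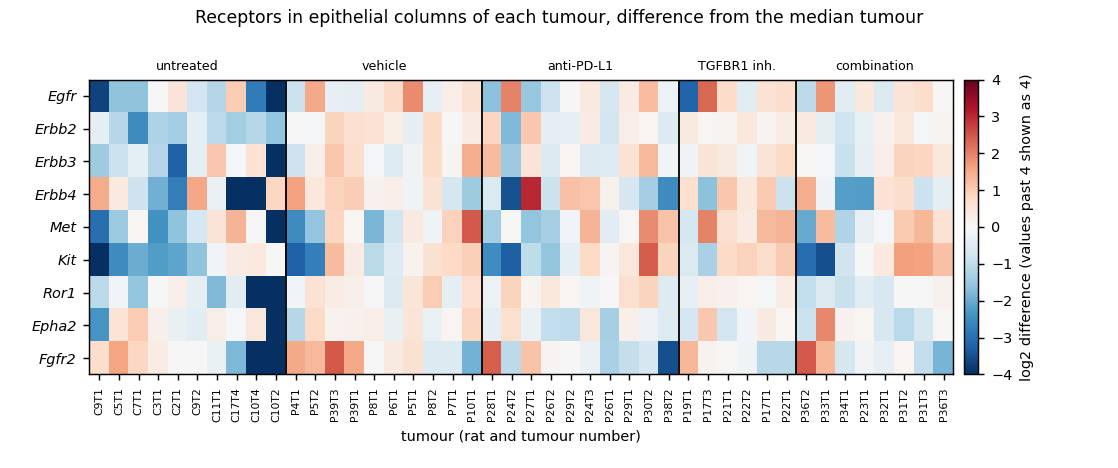
Each receptor in the 44 tumours with epithelial columns, as the log2 difference from the receptor's median tumour (colour scale from -4 to 4, values beyond shown as 4), ordered within each treatment group by Kit minus Fgfr2. Kit and Fgfr2 mostly take opposite colours (rho -0.60 over rats), Erbb2 and Ror1 vary least in the treated cohort, and C10T2 is dark blue in the 6 receptors at 0 there.

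In 17 tumours with 2 epithelial columns, Egfr was higher in the column with more Col1a1 in 16, Epha2 in 15 and Kit in 14. Erbb4 was lower in that column in 16 of the 17, Fgfr2 in 15 and Erbb2 in 14. Egfr had a median of 45.5 CPM in the columns richer in Col1a1 and 15.3 CPM in the poorer ones, and Erbb4 of 6.10 and 13.8 CPM. Over all genes tested, 15.5% were higher and 12.4% were lower in the Col1a1-richer column in at least 14 of the 17 tumours, a cutoff set after the values were seen. Erbb3 split 8 against 9 and Met 12 against 5. Col1a1 itself had medians of 902 and 26.3 CPM. The basal keratin Krt14 was higher in the richer column in 14 of 17 (medians 96.4 and 38.5 CPM), whereas Epcam was lower in 14 (1530 and 1921 CPM). Column names do not say which fraction either column is, and the part of cells other than tumour epithelium in these differences was not tested.

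Likeness between genes was read as Spearman's rho of mean log2 CPM over the 32 rats, among 13614 genes, and is given without a test because rats share batches, cohorts and depth. Kit was the receptor with the closest companions: Eepd1 (rho 0.93), the milk-fat oxidoreductase gene Xdh (0.93) and Gne, which makes a sialic acid precursor (0.93). In the 24 rats of the immunotherapy cohort these values were 0.92 each. Elf5, a transcription factor of luminal progenitor and alveolar cells, ranked 97th of 13613 with 0.80, and Ehf, another ETS factor, 47th with 0.84. Aldh1a3, which is on the same luminal progenitor list, ranked 6579th with -0.03. Elf5, Ehf, Aldh1a3, Esr1, Foxa1, Pgr and Gata3 come from the marker lists and were not among the nearest 3 genes, save Esr1 for Erbb4.

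Fgfr2 was most like Tspan15 (0.83), Emp2 (0.79) and Adap2 (0.76), and it was among the genes least like Kit: its rho with Kit was -0.60, ranked 13434th of 13613 for Kit. With Elf5 it had -0.69, with Aldh1a3 0.36, and with Foxa1, a pioneer factor of hormone-sensing luminal cells, 0.67. Without the C10 column the Kit and Fgfr2 rho was -0.61, and in the 24 immunotherapy rats -0.52. Pearson's r was -0.42 over all 32 rats, and -0.41 without the 2 rats farthest from the median of Kit. The nearest genes of Erbb4 were Mgat5 (0.83), Esr1, the oestrogen receptor (0.81), and Syt7 (0.80), and Foxa1 (0.72) and the progesterone receptor gene Pgr (0.69) ranked 28th and 38th. Mgat5 fell to 0.70 without the C10 column and Esr1 stayed at 0.81. Erbb4 and Fgfr2 had a rho of 0.61, and 0.66 in the immunotherapy cohort.

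Igsf9 (0.84) and Fam160a1 (0.84) were among the genes most like Erbb2, and Fam160a1 had 0.74 without the C10 column and 0.84 in the immunotherapy cohort. Gata3, a luminal transcription factor, ranked 12th (0.78), Erbb3 92nd (0.67, and 0.57 without the C10 column) and Esr1 161st (0.62). In the immunotherapy cohort the Erbb2 values were 0.60 with Gata3, 0.66 with Erbb3 and 0.60 with Esr1. Erbb3 was most like Jup (0.87), which encodes the junction protein plakoglobin, Patj (0.84, and 0.90 without the C10 column), a polarity protein, and Washc2c (0.82).
Egfr was most like Lrrc8d (0.83), Igf1r (0.83) and Synpo (0.83), had its highest value among the other receptors with Met (0.64, and 0.57 without the C10 column), and stood at -0.48 with Foxa1. Met was most like Frmd8 (0.85), Brpf1 (0.84) and Niban1 (0.82), of which the last 2 had 0.79 and 0.76 without the C10 column. Met had 0.65 with Kit, and 0.71 without that column. Met with Fgfr2 had -0.43, and -0.55 without it.
Epha2 was most like Sec24a (0.81), Ppard (0.78) and Ube2d2 (0.78). Ror1 had the loosest companions, Galnt2 (0.73), Pofut1 (0.71) and Map3k3 (0.68), and Galnt2 fell to 0.59 without the C10 column. Of the 36 receptor pairs, Kit with Fgfr2 had the lowest rho over the 32 rats with and without the C10 column, and Met with Fgfr2 (-0.54) in the immunotherapy cohort. The order of the highest pairs depended on the rats taken: Erbb2 with Erbb3 led over all 32 rats (0.67), Met with Kit without the C10 column (0.71) and Egfr with Met in the immunotherapy cohort (0.69).

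**Figure D3:**
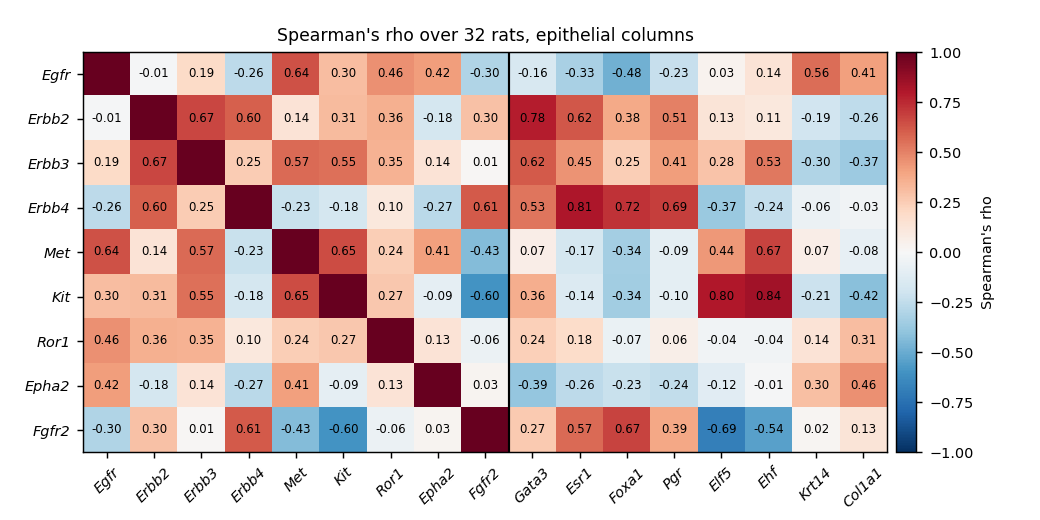
Spearman's rho over 32 rats between the 9 receptors (rows) and, in columns, the same receptors and 8 marker genes right of the line (Gata3, Esr1, Foxa1 and Pgr of hormone-sensing luminal cells, Elf5 and Ehf of progenitors, the basal Krt14, the collagen Col1a1). Kit is red with Elf5 and Ehf and blue with Fgfr2, while Erbb4 and Fgfr2 are red with Esr1 and Foxa1. Aldh1a3, another progenitor marker, is not shown (rho -0.03 with Kit and 0.36 with Fgfr2).

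The treatments were compared with vehicle on the summed epithelial counts of each rat, in 1 edgeR quasi-likelihood fit over 24 rats. Besides CD45, the labels give DN samples only to rats P5, P6 and P10 (vehicle), P38 (anti-PD-L1), P23 and P33 (combination). They give Ep samples only to rats P28 (anti-PD-L1), P19 and P21 (inhibitor), and both to the others. The fraction was in no fit, and its part in the differences was not tested. No gene passed an adjusted p of 0.05 against vehicle with anti-PD-L1, with the TGFBR1 inhibitor or with the combination (0% of 13614 genes in each), and no receptor did. At an unadjusted p under 0.05 there were 368, 850 and 752 genes. DESeq2 called 0 genes for the antibody, 12 for the inhibitor, all lower, and 1 higher and 1 lower for the combination, none of them a receptor, and limma voom called 0 in each.

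In the ERBB family, Erbb2 lay between 64.3 and 134 CPM in the 7 vehicle rats (median 88.6). It lay between 50.4 and 160 CPM with anti-PD-L1 (median 77.8), between 79.8 and 98.4 with the inhibitor (88.4) and between 43.3 and 92.1 with the combination (72.4). The groups overlapped, and the log2 differences from vehicle were -0.03 (SE 0.26), -0.01 (SE 0.31) and -0.33 (SE 0.27). Egfr had group medians of 36.4 CPM in vehicle rats and 28.9, 40.9 and 34.1 CPM in the treated groups in the same order. Its differences were -0.12 (SE 0.50), -0.13 (SE 0.59) and 0.04 (SE 0.52). The inhibitor group held both the lowest Egfr of the cohort, 3.13 CPM in rat P19, and 83.3 CPM in rat P17. By the labels P19 had an Ep sample only and P17 both Ep and DN samples, and the part of the fraction was not tested. Erbb3 had medians of 104.3, 131, 117 and 98.8 CPM from vehicle to combination, and Erbb4 of 7.51, 6.21, 9.78 and 6.32 CPM. Erbb4 reached 56.7 CPM in rat P27 on anti-PD-L1, with the other rats of that group at 19.7 CPM or below, and its difference was 0.66 (SE 0.69, adjusted p = 1.00).

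Met had medians of 33.1, 40.8, 67.6 and 38.1 CPM in the same order of groups, and its vehicle rats alone spanned 7.12 to 224 CPM. Kit had 151, 116, 181 and 117 CPM, Epha2 138, 111, 104.9 and 118 CPM, and Fgfr2 101.8, 64.4, 70.6 and 70.7 CPM. All these groups overlapped vehicle, but single treated rats stood above every vehicle rat: Kit reached 682 CPM in P30 on anti-PD-L1 and 416 CPM in P31 on the combination against 297 CPM, and Epha2 492.6 CPM in P33 on the combination against 241 CPM. The log2 differences from vehicle ran from -0.27 to 0.05 for Met and from 0.13 to 0.24 for Kit. For Fgfr2 they ran from -0.53 to -0.19. Their SE was 0.63 to 0.82, larger than any of these differences. Epha2 had -0.39 (SE 0.36), -0.27 (SE 0.43) and 0.24 (SE 0.38).

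Ror1 had the smallest p of the receptors. The 6 combination rats stood at 20.3, 27.9, 17.6, 18.3, 16.1 and 20.7 CPM, and the 7 vehicle rats between 18.9 and 47.01 CPM with a median of 33.98. The groups overlapped, with 3 vehicle rats (18.9, 21.6 and 25.8 CPM) below the highest combination rat. The log2 difference was -0.62 (SE 0.23, unadjusted p = 0.0138), and with Benjamini-Hochberg adjustment over all genes it did not pass (edgeR adjusted p = 0.883). It was -0.77 in batch 2 alone and -0.44 in batch 3 alone, and its adjusted p ranged from 0.345 (DESeq2) to 1.00 over the alternatives. With anti-PD-L1 Ror1 differed by 0.05 (SE 0.22) and with the inhibitor by -0.16 (SE 0.26). In the same comparison of combination and vehicle the endothelial markers had a median log2 difference of -2.77 and the fibroblast and matrix markers -2.11, and their part in the Ror1 values was not tested. Summed per rat, the 6 endothelial markers stood between 6.95 and 70.03 CPM in combination rats and between 5.67 and 303 CPM in vehicle rats, and the 8 fibroblast and matrix markers between 182 and 11141 CPM and between 140 and 36194 CPM.

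**Figure D4:**
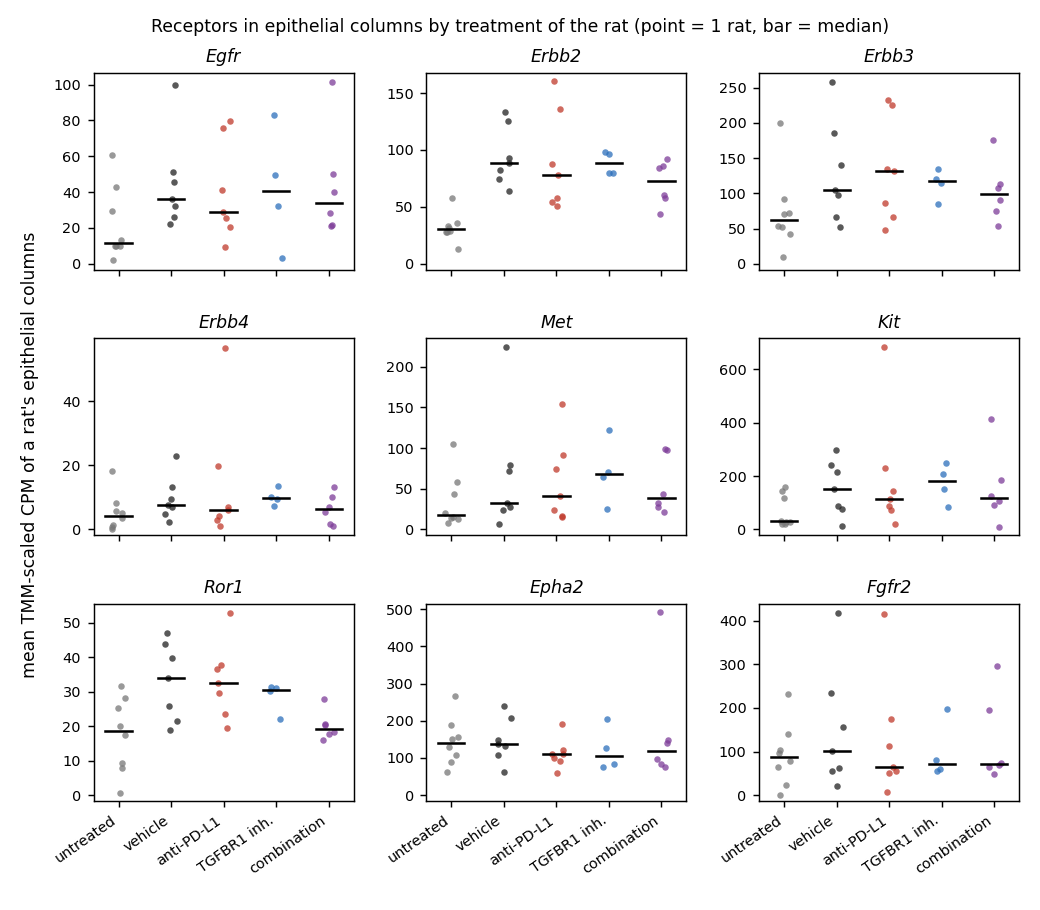
Mean TMM-scaled CPM of a rat's epithelial columns for each receptor, with each point a rat, bars the group medians, and groups from left to right untreated (8), vehicle (7), anti-PD-L1 (7), TGFBR1 inhibitor (4) and combination (6). Treated groups overlap the vehicle group in every panel, combination rats sit low for Ror1, and untreated rats sit below the vehicle rats for Erbb2.

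Of the other genes of the pathway, 0 of 42 other receptor kinases, 0 of 21 ligands, 0 of 30 adaptors and relays, 0 of 21 negative regulators and 0 of 19 ERK response genes passed in any of the 3 comparisons. The median log2 difference of the 9 receptors from vehicle was -0.03 with anti-PD-L1, -0.13 with the inhibitor and -0.27 with the combination, where all genes had 0.00, -0.03 and -0.02. The other receptor kinases had -0.36, -0.94 and -0.56. That list holds receptors of other cell types, and Pdgfra and Pdgfrb of fibroblasts and Kdr and Tek of endothelium are also among the markers of those cells. The endothelial markers had medians of -1.82, -1.64 and -2.77 in the same order, and their part in the list's values was not tested. The 3 treatments share their vehicle rats, so these values are not independent of each other.

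Untreated rats belong to another cohort and, but for a column of rat C9, to another batch. By the labels their tumour samples other than CD45 were all Ep, while every vehicle rat with epithelial columns had a DN sample. The cohort, the batch, the sorted fraction and the lack of a vehicle therefore cannot be told apart. Erbb2 was the only receptor of the 9 whose untreated and vehicle rats did not overlap: 12.8 to 57.97 CPM in 8 untreated rats (median 30.3) against 64.3 to 134 CPM in vehicle rats. Over all genes tested 0.389% (53 of 13614) did not overlap in that way, 42 of them lower in untreated rats. Rat C9 had tumours in different batches, and its Erbb2 stood at 57.6 CPM in the tumour of batch 1 and 58.4 CPM in that of batch 3. Without the C10 column the untreated median of Erbb2 was 32.4 CPM, and without the 4 columns of fewest genes the range in the remaining 5 untreated rats was the same with a median of 31.4 CPM. Kit had a median of 30.2 CPM in untreated rats, with 3 rats at 116 to 158 CPM and the other 5 at 21.6 to 31.5 CPM, while 6 of 7 vehicle rats lay between 77.2 and 297 CPM. Those 3 rats are the ones whose columns had the fewest genes with a count. Erbb4 was at 0 in 2 untreated columns with total counts of 14929126 and 17500712, from tumours in which Kit was at 158 and 164 CPM. A count of 0 there allows up to 0.201 and 0.171 CPM of the column total by counting error alone. These columns also had the fewest genes with a count, 9831 and 8278, and the part of this in the Erbb4 zeros was not tested.

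The deposited sample table classes tumours of the immunotherapy cohort as growing or stable, by a rule that is not given in the sources used here. Epithelial columns of 21 growing tumours (17 rats) and 12 stable tumours (10 rats) were summed per rat and class and compared with treatment as a covariate. No gene passed (0% of 13373), the unadjusted p was under 0.05 for 746 genes, DESeq2 called 4 genes higher and 3 lower in stable tumours, and limma voom 1 and 1, none of them a receptor. Rats P17, P24 and P39 enter with both classes. The sorted fraction was not in these fits either, and its part was not tested.

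Kit ranged from 10.8 to 259 CPM in growing tumours (median 126) and from 19.99 to 682 CPM in stable ones (median 224). The classes overlapped, with 5 stable tumours above every growing tumour, and the log2 difference was 1.06 (SE 0.52, unadjusted p = 0.0529, edgeR adjusted p = 0.854). Its medians were 136 and 219 CPM in batch 2 and 106.6 and 230.0 CPM in batch 3. Met had medians of 38.4 and 88.8 CPM in growing and stable tumours, with ranges of 7.12 to 224 and 10.5 to 164 CPM, and a difference of 0.83 (SE 0.45, unadjusted p = 0.0746, edgeR adjusted p = 0.854). In batch 2 the Met medians were 36.2 and 86.4 CPM and in batch 3 they were 42.5 and 91.3 CPM. Erbb3 had medians of 91.3 and 130.4 CPM and a difference of 0.48 (SE 0.27, unadjusted p = 0.0908, edgeR adjusted p = 0.854), which was 0.58 in batch 2 alone and 0.07 in batch 3 alone. The adjusted p of these 3 receptors ranged from 0.321 to 1.00 over the alternatives, the lowest for Erbb3 with voom.

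Within the 3 rats with both classes, Met and Fgfr2 were higher in the stable tumour in 3 of 3, as were 8% of 13614 genes. In each of these rats the stable and the growing tumour were in different batches and, by the labels, had unlike sets of Ep and DN samples. Growth, batch and fraction therefore cannot be told apart within them. Met stood at 164 and 100.9 CPM in rat P17, 106.3 and 41.9 CPM in rat P24, and 86.4 and 43.6 CPM in rat P39, stable first. Kit was higher in the stable tumour in 2 of 3, with 50.98 against 204 CPM in rat P17 as the exception. Fgfr2 had like medians over all tumours, 73.2 CPM growing and 72.98 CPM stable, but 3 stable tumours stood above every growing tumour, with highest values of 515 and 234.5 CPM. Its difference of 0.65 (SE 0.50) turned to -2.10 in batch 3 alone, where only 3 stable tumours lie. Erbb2 (84.3 and 80.1 CPM), Egfr (38.99 and 37.9), Erbb4 (8.46 and 4.86), Ror1 (29.4 and 27.9) and Epha2 (139 and 104.97) differed by less than their SE, from -0.44 for Erbb4 to 0.16 for Erbb2.

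Beside these values, the 8 fibroblast and matrix markers had a median log2 difference of -1.45 in stable tumours, with 8 of 8 negative, and summed to medians of 2199 CPM in growing and 654 CPM in stable tumours (138 to 49323 and 12.2 to 49219 CPM). The 6 luminal progenitor markers, a list that includes Kit, had 0.39 with 6 of 6 positive. The 10 luminal epithelial markers had 0.24 with 10 of 10 positive, and the 6 milk and alveolar markers -0.81 with 1 of 6 positive. No gene of these lists passed. The part of cell composition in the Kit and Met values was not tested. The median difference was 0.16 for the 9 receptors, -0.13 for the 20 ligands tested and -0.26 for the 19 ERK response genes, where all genes had -0.03.

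**Figure D5:**
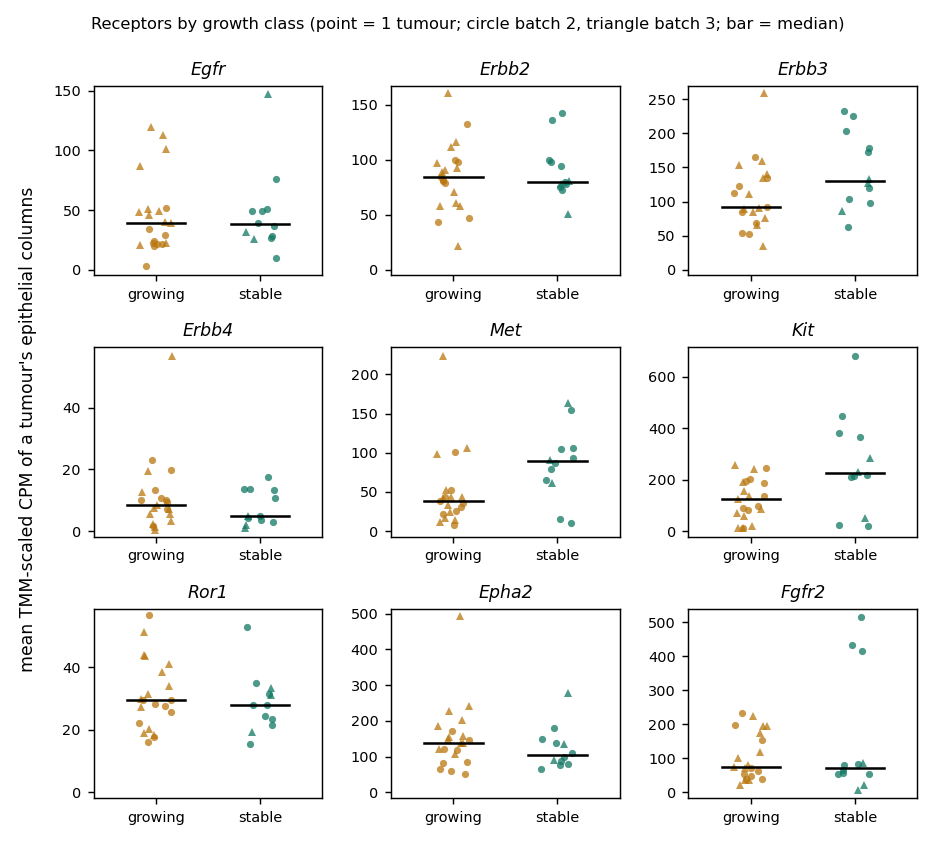
Mean TMM-scaled CPM of a tumour's epithelial columns for each receptor in 21 growing and 12 stable tumours, with circles for batch 2, triangles for batch 3 and bars for class medians. The stable medians of Kit, Met and Erbb3 are higher while the points of the classes overlap in all 9 panels.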

How the data were processed

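The authors deposited a table of read counts per gene symbol from bulk RNA of sorted tumour fractions, with a sample table giving treatment, Growth and batch. The submitters' processing notes name FastQC, STAR and the rn6 build. How reads were counted, whether by strand, what batch means and how Growth was set is not given in the sources used here. The labels' protocols give amplification with the SMARTer v4 kit. All columns but 1 were used, 13 of them matched to a single sample and 94 to a treatment group only. The members and gene lists were chosen with earlier results of these data known.

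Epithelial columns were summed per rat, the replicate, and tested with edgeR 4.0.16 (R 4.3.3; TMM, filterByExpr, robust quasi-likelihood fit, Benjamini-Hochberg adjustment over all genes, threshold 0.05). The growth comparison used sums per rat and class with treatment as covariate. SE is the log2 difference over the square root of F. Log2 CPM used a prior count of 2, and differences between classes in a tumour a pseudocount of 1 CPM. Likeness used pandas 2.3.3 and scipy 1.17.1. The scripts were tested on simulated data. Alternatives were RLE scaling, no filter on low counts, DESeq2 1.42.0, a batch covariate and a fit of the compared groups alone. For growth that last fit left out the vehicle tumours. The batch covariate used sums per rat and batch, 32 from the 24 rats in the treatment fits, so some rats entered more than once. Others were limma 3.58.1 voom per column with the rat as a random effect, and leaving out each rat. A stricter epithelial rule (Ptprc under 50 and Epcam at least 600 CPM) was also used. Chosen after seeing the data were each batch alone and levels without the shallow column or the 4 columns of fewest genes.

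Named genes are the 9 receptors, of each list up to 4 passing genes per comparison, the 3 genes of highest rho per receptor (provisional symbols left out; a gene near Erbb2 is not reported here), and Ptprc and Epcam. Other genes named were chosen from the lists after their values were seen.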

Additional observations from a re-analysis of the deposited data

Results flagged for a closer look

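In 10 of 45 receptor and treatment groups of 4 to 8 rats, a single rat stood far from the others (Dixon's test at the 95% level). Each is given as mean CPM of the rat's epithelial columns. Chance passes the test in about 1 group of 20 where values are normally distributed. It was run on CPM and not on logs, and the rats found were on the high side but for Ror1, so that rate need not hold here. Egfr was high in vehicle rat P5 (99.7 CPM) and in combination rat P33 (101.6 CPM), and P33 was also high for Epha2 (492.6 CPM). Among rats on anti-PD-L1, Kit was high in P30 (682.4 CPM), Erbb4 in P27 (56.75 CPM) and Fgfr2 in P28 (415.5 CPM), each a different rat. Met was high in vehicle rat P10 (223.9 CPM). Among untreated rats, Erbb3 was high in C11 (200.1 CPM) and Erbb4 in C9 (18.25 CPM). Ror1 was low in rat P19 on the TGFBR1 inhibitor (22.11 CPM).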

How the results depend on the processing

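No paired analysis was possible because the column names carry no replicate numbers that pair samples, and the treatments are in different rats. In the growth comparison 3 rats enter with both classes, and the edgeR fit took their sums as independent. Differences within these rats stand with that comparison, and voom took the rat as a random effect. edgeR called 0 genes in each of the 4 comparisons; DESeq2 called 12 lower genes for the TGFBR1 inhibitor, 1 higher and 1 lower for the combination, and 4 higher and 3 lower for stable tumours, and voom 1 and 1 for stable tumours. No receptor passed under any alternative, and the smallest adjusted p of a receptor was 0.321 (voom). The receptor levels moved by less than 1 SD over rats in all 54 recomputed values. Of 324 recomputed receptor differences, 46 changed sign, none past the threshold and the cause was not tested. As log2 values, for anti-PD-L1, batch as a covariate gave Egfr 0.10, Erbb3 -0.16, voom per column gave Erbb3 -0.01493, Erbb4 -0.51, Met 0.03452, stricter epithelial rule gave Egfr 0.04791, Erbb3 -0.14, batch 2 alone gave Egfr 0.15, Erbb4 -0.28, Met 0.35, Ror1 -0.18 and batch 3 alone gave Egfr 0.0226, Erbb3 -0.50, Kit -0.12. For the TGFBR1 inhibitor, batch as a covariate gave Egfr 0.45, Erbb4 -0.30, Epha2 0.08609, voom per column gave Erbb3 0.01006, stricter epithelial rule gave Egfr 0.0536, Erbb4 -0.01024, batch 2 alone gave Egfr 0.02802, Erbb4 -0.13, Kit -0.18 and batch 3 alone gave Egfr 1.00, Erbb3 0.18, Erbb4 -1.39, Ror1 0.11, Epha2 0.31. For the combination, RLE scaling gave Egfr -0.003276, no filter on low counts gave Egfr -0.01477, DESeq2 gave Egfr -0.003062, only the groups compared gave Egfr -0.003015, voom per column gave Egfr -0.09154, Met 0.26, Kit -0.02028, Epha2 -0.15 and batch 2 alone gave Kit -0.08295, Epha2 -0.26. For growth (stable minus growing), the fit without vehicle tumours gave Ror1 0.04943, and batch as a covariate gave Ror1 0.01336, Epha2 0.10. There, batch 2 alone gave Ror1 0.06741, Epha2 0.26 and batch 3 alone gave Egfr -0.49, Erbb2 -0.21, Fgfr2 -2.10. Leaving out each rat in turn changed the sign in 61 of 864 values, with ranges for anti-PD-L1 Egfr -0.39 to 0.16, Erbb2 -0.26 to 0.091, Erbb3 -0.14 to 0.35, Erbb4 -0.49 to 0.99, Fgfr2 -0.89 to 0.35, Kit -0.57 to 0.52, Met -0.70 to 0.54, Ror1 -0.092 to 0.16; for the inhibitor Egfr -0.56 to 0.26, Erbb2 -0.089 to 0.11, Erbb3 -0.29 to 0.15, Fgfr2 -1.16 to 0.014, Kit -0.039 to 0.49, Met -0.27 to 0.84; for the combination Egfr -0.35 to 0.32, Epha2 -0.36 to 0.43, Erbb3 -0.47 to 0.036, Fgfr2 -0.69 to 0.32, Kit -0.38 to 0.40, Met -0.51 to 0.52; for growth Egfr -0.16 to 0.33, Ror1 -0.14 to 0.057. Stable and growing tumours kept the sign for Erbb2, Erbb3, Erbb4, Met, Kit, Epha2 and Fgfr2 in these. The few rats a group and their wide spread in Kit, Met, Erbb4 and Fgfr2 limit what can be seen.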

Other observations

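The 2 columns in neither class are given as TMM-scaled CPM only. The vehicle column of tumour 2 of rat P6 held 144880 CPM of the collagen gene Col1a1 and 14.98 CPM of Epcam, with Egfr at 87.8, Fgfr2 at 63.6, Ror1 at 34.2 and Erbb2 at 4.99 CPM. The untreated column of tumour 1 of rat C5 held 221 CPM of Ptprc and 25.3 CPM of Epcam, with Epha2 at 41.98 CPM, Kit at 13.5 CPM and Erbb2 and Egfr at 0.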
